A study of Mus musculus and Homo sapiens with 12 samples.

Results

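The genes studied here encode RNA polymerases I, II and III and the factors that place polymerases I and III on their templates. They were taken by symbol, without regard to case: every POLR1, POLR2 or POLR3 subunit lettered A to N, with or without a final L, and RRN3, UBTF, TAF1A to TAF1D, TTF1, BRF1, BRF2, BDP1 and MAF1. The rule found 42 genes among the 55487 counted in mouse and the same 42 among the 78932 counted in human, and all 42 had enough reads to be tested in both. They were measured by RNA sequencing of polyadenylated RNA in 2 experiments, each with a control and a DDX21-depleted group of 3 libraries. In the first, LK cells (lineage negative, Kit positive) were sorted from the liver of mouse fetuses at E13.5. WT embryos carried loxP-flanked Ddx21 alleles without Cre (Ddx21f/f), and cKO embryos carried the same alleles with a Vav-Cre transgene, in which the blood-cell promoter of Vav1 drives the recombinase, so that both groups shared the flanked alleles. In the second, cells derived from the H1 human embryonic stem cell line were transduced with a lentivirus that carried mCherry and either a control hairpin (shNC) or 1 hairpin against DDX21 (shDDX21), and were sorted after 2 days for the hairpin marker, CD34, CD45 and CD43. All libraries of the second experiment thus came from 1 line and carried a lentivirus. The labels do not say that libraries of a group came from separate embryos or cultures, and the p-values then measure only the spread between these libraries.

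RNA polymerase I makes the large ribosomal RNA precursor in the nucleolus, polymerase II makes messenger RNA, and polymerase III makes transfer RNA, 5S ribosomal RNA and other short RNAs. UBTF and the SL1 complex (TBP with TAF1A to TAF1D) mark the ribosomal DNA promoter, and RRN3 carries polymerase I to it, while TFIIIB (BRF1 or BRF2 with BDP1 and TBP) does so for polymerase III and MAF1 represses it. The enzymes share subunits: POLR2E, POLR2F, POLR2H, POLR2K and POLR2L belong to all of them, and POLR1C and POLR1D to polymerases I and III. DDX21 is a nucleolar RNA helicase that is known to bind ribosomal DNA and to act in ribosomal RNA production.

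Levels are in CPM, the read count of a gene scaled to the size of its library with TMM factors. The libraries held 21116079 to 23898130 counted reads in mouse and 15289510 to 19798608 in human. Ddx21 itself was at 19.7% of the WT level in cKO cells and DDX21 at 14.5% of the shNC level in shDDX21 cells. Of the LK markers fixed for the check (Kit, Ptprc, Cd34, Spn, Gata2 and Myb), all 6 were found, with a summed level of 1310 to 1350 CPM in WT and 1410 to 1420 in cKO. The summed hepatocyte markers (6 genes, of which Serpina1a was under 0.5 CPM in every library) stood at 1.31 to 1.72 CPM in WT and 28.0 to 31.9 in cKO. The 5 macrophage markers (C1qa under 0.5 CPM in every library) went from 37.2 to 40.5 CPM in WT to 13.8 to 16.7 in cKO, with Csf1r at 30.5 and 7.2 CPM and Cd68 at 5.42 and 6.81. The 4 endothelial markers went from 43.7 to 45.9 CPM to 78.3 to 87.5. Of 6 markers for the H1-derived cells, 5 were found by symbol, at 1620 to 1650 CPM in sum in both groups, within which GATA2 went from 435 to 200 CPM and SPN from 691 to 883. The 4 erythroid markers found of 6 went from 401 to 419 CPM in shNC to 476 to 483 in shDDX21, and the 2 macrophage markers found of 5 from 357 to 368 CPM to 419 to 423. The 4 endothelial markers summed to 1430 to 1470 CPM in shNC and 1290 to 1310 in shDDX21. The part of these shifts in the results for the polymerase genes was not tested. WT replicate 3 stood apart from the other WT libraries. In cKO, replicates 1 and 2 deviated from the group mean in opposite directions (correlation of deviations -0.73 over all genes tested). The deviations of WT replicate 3 correlated at 0.41 with those of cKO replicate 2 and at -0.42 with those of cKO replicate 1. WT replicate 3 and cKO replicate 2 are called the libraries that stand apart below, although cKO replicates 1 and 2 were about equally far from cKO replicate 3.

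The upstream sequences of 4 genes that were called higher in the mouse knockout, and that RefSeq lists with a single start, are shown because all 4 were called lower in human. Polr2m, the fifth gene called higher, has more than 1 RefSeq start and is not shown. Each is the 250 bases before the RefSeq start (GRCm38.p6), 5′ to 3′ on the gene's strand, and all of them lie on the plus strand. Rrn3 is at chr16:13780449-13780698, Polr1e at chr4:45018359-45018608, Polr3b at chr10:84622048-84622297 and Ttf1 at chr2:29060013-29060262. Capitals mark the letters of the motifs searched.
Rrn3: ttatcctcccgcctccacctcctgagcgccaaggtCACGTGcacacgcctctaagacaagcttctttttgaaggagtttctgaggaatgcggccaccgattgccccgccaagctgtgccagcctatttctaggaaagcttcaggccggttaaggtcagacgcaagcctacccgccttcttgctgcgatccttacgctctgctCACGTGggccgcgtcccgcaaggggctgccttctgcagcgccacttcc
Polr1e: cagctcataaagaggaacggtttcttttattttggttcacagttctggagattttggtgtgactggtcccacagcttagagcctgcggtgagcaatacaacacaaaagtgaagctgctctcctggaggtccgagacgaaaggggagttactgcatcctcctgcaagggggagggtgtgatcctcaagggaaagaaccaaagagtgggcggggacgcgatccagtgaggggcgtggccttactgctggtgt
Polr3b: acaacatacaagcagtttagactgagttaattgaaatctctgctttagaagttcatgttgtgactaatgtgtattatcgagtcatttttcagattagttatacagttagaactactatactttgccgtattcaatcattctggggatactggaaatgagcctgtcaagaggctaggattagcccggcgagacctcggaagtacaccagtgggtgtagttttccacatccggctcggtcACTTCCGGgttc
Ttf1: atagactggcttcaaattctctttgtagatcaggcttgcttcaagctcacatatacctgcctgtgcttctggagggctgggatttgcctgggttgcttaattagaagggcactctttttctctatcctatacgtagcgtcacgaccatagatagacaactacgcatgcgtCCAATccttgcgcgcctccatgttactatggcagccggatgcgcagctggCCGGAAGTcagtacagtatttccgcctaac

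The motifs were CACGTG (E-box), CCGGAAGT (the site letters of ETS factors), CGCATGCGC (NRF1), CCAAT, AAGATGGCG (YY1) and TATAAA, each on both strands. The matches in the 4 sequences did not overlap one another. Rrn3 held CACGTG at 48 and at 215 bases before its start, Polr3b held ACTTCCGG at 12 bases, and Ttf1 held CCGGAAGT at 30 and CCAAT at 80 bases, whereas the Polr1e window held none of them. Of the 42 mouse genes, 30 were matched in the RefSeq table, with 39 starts. CACGTG was in 7.69% of these starts and in 6.02% of all 32851 starts in the table. The ETS letters were in 20.5% of them (8 starts of 7 genes: Polr1c, Polr2f, Polr2j, Polr3b, Taf1a, Taf1c and Ttf1) and in 2.88% of all starts. CGCATGCGC was in 7.69% against 1.45%, CCAAT in 33.3% against 33.8%, TATAAA in 5.13% against 12.4%, and AAGATGGCG in 0 of the 39 starts against 0.606% of all. The 7 genes with the ETS letters included genes called higher (Polr3b, Ttf1), called lower (Polr1c, Polr2j) and not called (Polr2f, Taf1a, Taf1c) in the mouse knockout.

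In mouse LK cells, 20 of the 42 polymerase genes changed with loss of Ddx21 (47.6%), 5 upward and 15 downward, and none by 2-fold. A change here is an adjusted p under 0.05 in the quasi-likelihood F test of edgeR, adjusted by Benjamini-Hochberg over all 14918 genes tested, of which 36.5% were called, 20.7% higher and 15.8% lower. The median log2 fold change (cKO minus WT) was -0.13 over the 42 genes and 0.00057 over all genes. The 3 WT and 3 cKO values did not overlap for 25 of the 42 genes, against 49.0% of all genes (27.6% higher and 21.4% lower). In human cells, 34 of 42 changed (81.0%), 8 upward and 26 downward, against 52.7% of all 20188 genes tested, 25.3% higher and 27.4% lower. The median log2 fold change (shDDX21 minus shNC) was -0.16, against 0.0052 over all genes, and the groups did not overlap for 30 of 42, against 57.4% of all genes (27.9% higher and 29.5% lower). All levels are shares of each library's RNA, and in bulk samples fewer cells of a type and less RNA per cell cannot be told apart.

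**Figure D1:**
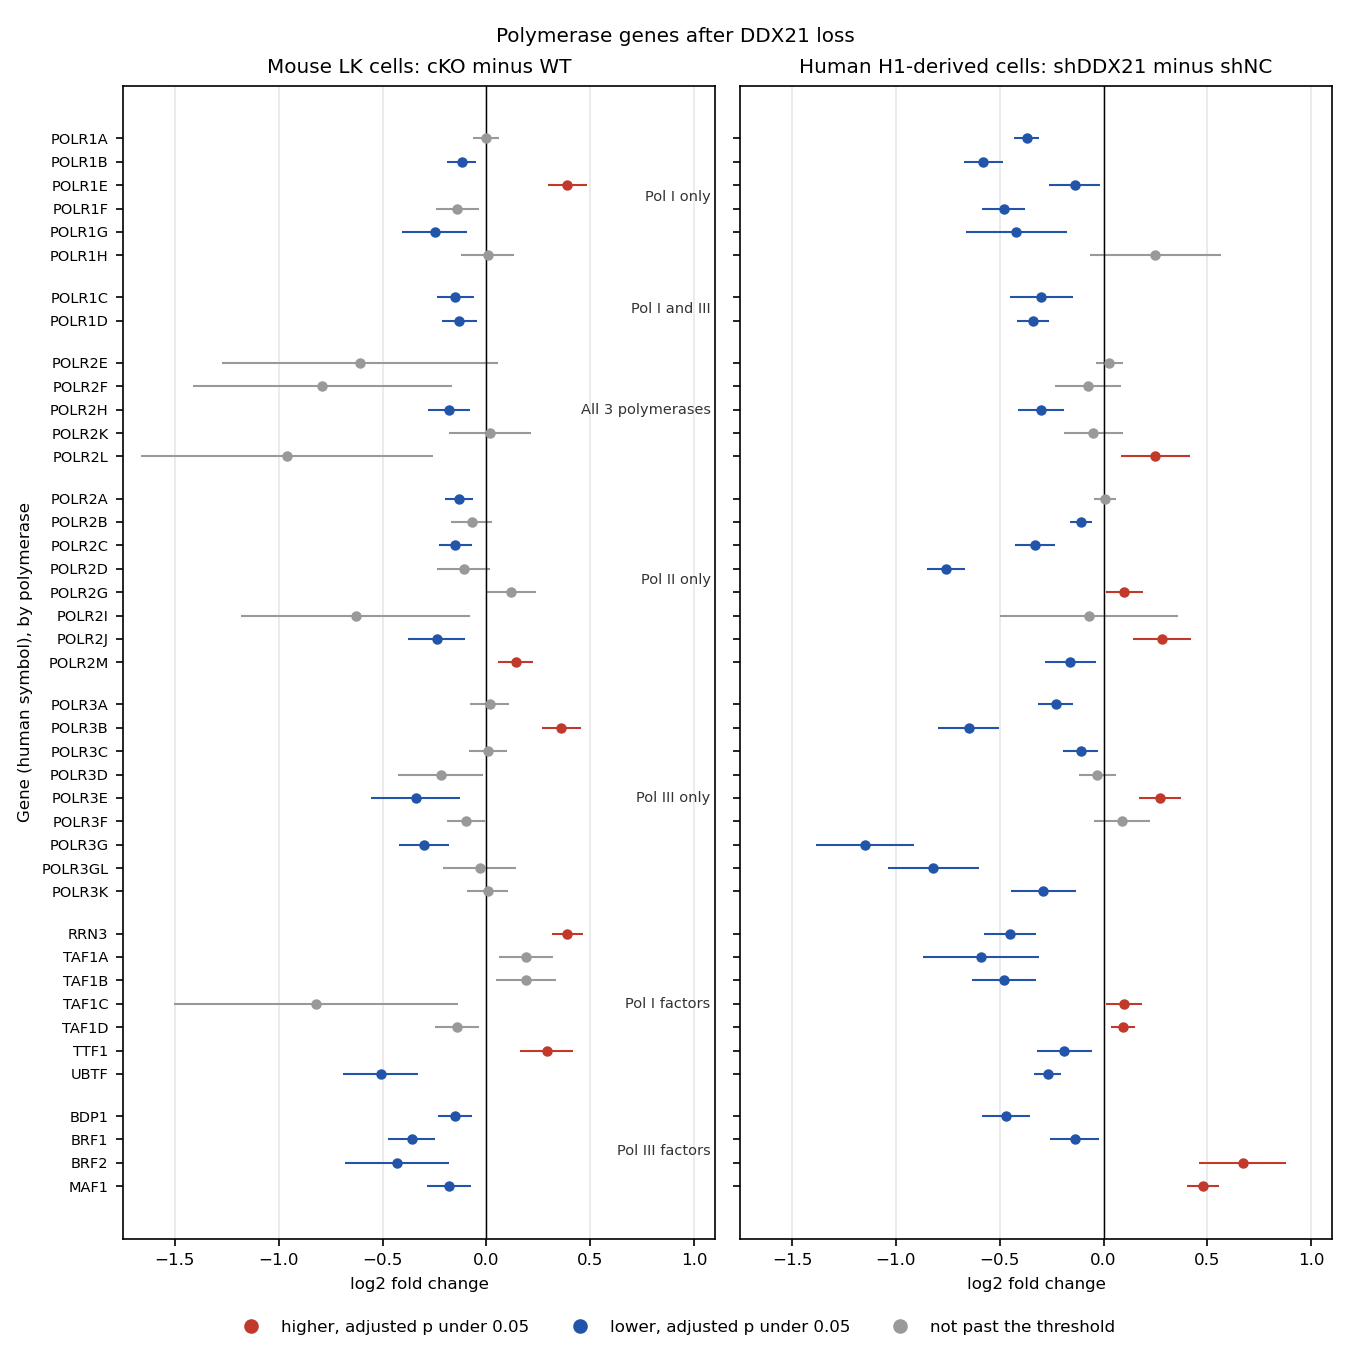
Log2 fold change of each gene named on the axis (point) with 2 standard errors on either side (bar), for mouse on the left and human on the right, grouped by polymerase. Red and blue points passed an adjusted p of 0.05 upward and downward. The human panel has more blue points than the mouse panel, and Polr2e, Polr2f, Polr2l, Polr2i and Taf1c have the widest mouse bars.

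Which mouse genes were counted depended on the scaling and on the libraries. With libraries scaled to total counts, 7 polymerase genes were called higher and 4 lower, so that the share of calls that were higher went from 25% to 63.6%. Over all genes that share went from 56.6% to 68.9%, and the median log2 fold change from 0.00057 to 0.066. The share of all genes that were called went from 36.5% to 34.7%. With upper-quartile factors there were 4 higher and 7 lower, and 34.5% of all genes were called. With at least 10 counts required in every library there were 6 higher and 11 lower, and 36.5% of all genes were called. The count fell to 8 without WT replicate 1, 6 without WT replicate 2, 9 without cKO replicate 2 and 7 without cKO replicate 3, and was 18 (5 higher, 13 lower) with both libraries that stand apart left out. Without those libraries the calls of Maf1, Polr1c, Polr1d, Polr2a, Polr2c, Polr2h and Polr2j were lost, and Polr2e, Polr2f, Polr2i, Polr2l and Taf1c were called. Calls of 6 genes, Rrn3, Polr1e, Polr3b, Ubtf, Brf1 and Polr3g, were made under each of 16 alternatives to the mouse fit other than the 2-fold threshold, and the other 14 calls were lost under at least 1. In human, upper-quartile factors gave 11 higher and 19 lower (36.7% of calls higher, against 23.5%), while over all genes the share went from 48.0% to 57.4% and the median log2 fold change from 0.0052 to 0.074. There 22 of the 34 calls were made under each of 14 alternatives, the 2-fold threshold again set apart. The other 12 were lost under at least 1, among them those of BRF1, POLR1E, POLR2B, POLR2G, POLR2J, POLR2L, POLR2M, POLR3C, TAF1C, TAF1D and TTF1.

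The polymerase I factors included the gene with the largest drop in mouse that passed the test and several that rose. Rrn3 (ENSMUSG00000022682, chr16:13780708-13814839 on GRCm38) encodes TIF-IA, which couples polymerase I to the promoter complex. Its level was 217, 218 and 215 CPM in WT and 277, 297 and 281 in cKO, which is 0.39 higher on the log2 scale (SE 0.0379, adjusted p = 0.000247 by edgeR). All 3 cKO libraries lay above all WT libraries. In human, RRN3 went the other way, from 33.3, 35.0 and 35.7 CPM in shNC to 26.3, 25.3 and 24.7 in shDDX21 (log2 -0.45, SE 0.0622, adjusted p = 3.82e-09 by edgeR). The groups did not overlap there either, and RRN3P2, a copy of RRN3 with 18.6% as many reads over the human libraries, leaves the split of shared reads uncertain.

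Ubtf (ENSMUSG00000020923, chr11:102304560-102319742), the HMG-box protein that coats active ribosomal DNA, fell in both experiments. In mouse it was at 616, 608 and 537 CPM in WT and 461, 367 and 410 in cKO (log2 -0.51, SE 0.0899, adjusted p = 0.00425 by edgeR). WT replicate 3 was the lowest WT library and cKO replicate 2 the lowest cKO library, and the groups did not overlap. Without both, the log2 fold change was -0.48. Human UBTF went from 143, 151 and 146 CPM to 122, 122 and 120 (log2 -0.27, SE 0.0315, adjusted p = 8.93e-12 by edgeR), with no overlap.

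Ttf1, which binds the terminator of the ribosomal gene, rose in mouse from 52.0 ± 2.61 CPM (SD, n = 3 libraries) to 63.5 ± 3.71 (log2 0.29), a call lost without WT replicate 2 (adjusted p = 0.0519 by edgeR), and fell in human (log2 -0.19). Of the SL1 subunits, Taf1a and Taf1b were each at 114% of the WT mean with no overlap between groups, but missed the threshold (adjusted p = 0.0558 and 0.0747 by edgeR). Their human counterparts fell, TAF1A from 7.25, 6.2 and 6.7 CPM to 4.98, 4.03 and 4.38 (log2 -0.59, SE 0.14) and TAF1B to 71.4% of shNC (log2 -0.48). TAF1A was among the genes with the fewest reads here, and its groups did not overlap. Human TAF1D and TAF1C were called higher by small amounts (log2 0.094 and 0.1). Mouse Taf1d (log2 -0.14, SE 0.0531) and Taf1c (log2 -0.82, SE 0.342) did not pass the test.

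Among the 6 subunits found only in polymerase I, 5 fell and none rose in human, whereas 1 rose and 2 fell in mouse. Of all genes tested, 27.4% were lower and 25.3% higher in human, and 15.8% lower and 20.7% higher in mouse. POLR1A and POLR1B form the catalytic core. Human POLR1A was at 180, 174 and 180 CPM in shNC and 138, 137 and 139 in shDDX21 (log2 -0.37, SE 0.0296, adjusted p = 4.32e-18 by edgeR), and the groups were far apart. Mouse Polr1a was at 323, 327 and 332 CPM in WT and 329, 323 and 327 in cKO (log2 -0.0027). The groups overlapped, and the interval of 2 standard errors on either side ran from -0.065 to 0.06.

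Human POLR1B fell from 62.2, 66.1 and 67.0 CPM to 41.9, 44.7 and 44.2 (log2 -0.58, SE 0.0472, adjusted p = 8.02e-18 by edgeR). Mouse Polr1b was at 258, 252 and 252 CPM in WT and 232, 241 and 227 in cKO (log2 -0.12, SE 0.036, adjusted p = 0.0332 by edgeR). The mouse groups did not overlap, but the call was lost without each library other than cKO replicate 2 (adjusted p from 0.0548 to 0.134 by edgeR). POLR1E (PAF53), which forms with POLR1G a dimer on the polymerase I core, was the polymerase I subunit that rose: Polr1e (ENSMUSG00000028318) was at 66.4, 64.1 and 68.1 CPM in WT and 83.9, 86.6 and 90.2 in cKO (log2 0.39, SE 0.048, adjusted p = 0.000775 by edgeR). No WT library reached the cKO range. In human it was called lower by a small margin (log2 -0.14, adjusted p = 0.0483 by edgeR), with overlapping groups.

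POLR1G, the partner of POLR1E, went down in both (log2 -0.25 in mouse and -0.42 in human). In human, 49.8% of the exon bases of POLR1G overlap ERCC1 on the other strand. Whether reads were counted by strand is not given in the sources used here, and reads of the pair may be mixed. POLR1F, a stalk subunit, fell in human (log2 -0.48) and was at -0.14 in mouse without passing the test. POLR1H, a small zinc-ribbon subunit, passed in neither (log2 0.0064 in mouse and 0.25 in human, the latter at 3.77 to 5.18 CPM, where 24.5% of its exon bases overlap POLR1HASP).

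The subunits shared by polymerases I and III fell in both experiments. Polr1c was at 90.3% and Polr1d at 91.4% of WT in mouse, and POLR1C at 81.2% and POLR1D at 79.0% of shNC in human, with no overlap between groups in any of these cases. The mouse calls were close to the threshold (adjusted p = 0.0387 and 0.0496 by edgeR), and Polr1c was called under none of the alternatives tried for mouse.

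Of the subunits in all 3 enzymes, POLR2H fell in both (log2 -0.18 in mouse and -0.3 in human), and POLR2K passed in neither (log2 0.019 and -0.049). Human POLR2L was called higher (log2 0.25, adjusted p = 0.00791 by edgeR), but its groups overlapped, at 18.5, 22.8 and 20.3 CPM in shNC against 28.6, 23.9 and 19.9 in shDDX21. Its call was lost without shDDX21 replicate 1 (adjusted p = 0.356 by edgeR) and without shNC replicate 1 (adjusted p = 0.109 by edgeR), and 22.8% of its exon bases overlap CD151. Human POLR2E and POLR2F did not pass (log2 0.027 and -0.074).

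In mouse, Polr2e, Polr2f and Polr2l, together with Polr2i of polymerase II and Taf1c of SL1, varied more within groups than any other of these genes. Polr2l was at 36.2, 31.5 and 15.0 CPM in WT and 19.6, 10.3 and 12.6 in cKO. Polr2e was at 122, 126 and 83.1 CPM in WT and 106, 39.5 and 71.6 in cKO, and Polr2f at 82.6, 70.9 and 46.6 against 55.4, 24.4 and 35.7. In all 5 genes WT replicate 3 was the lowest WT library, and cKO replicate 2 was the lowest and replicate 1 the highest cKO library. The groups overlapped in each.

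Polr2i was at 16.3, 13.1 and 9.28 CPM in WT and 11.5, 6.16 and 7.44 in cKO, and Taf1c at 38.0, 32.5 and 19.8 against 25, 10.4 and 15.9. The log2 fold changes of the 5 genes lay between -0.96 (Polr2l) and -0.61 (Polr2e), larger in size than any mouse value that passed the test, and none of them passed (adjusted p from 0.0697 to 0.191 by edgeR). With both libraries that stand apart left out, all 5 were called lower, at log2 values from -1.06 for Polr2l (adjusted p = 0.00252 by edgeR) to -0.47 for Polr2e (adjusted p = 0.037 by edgeR). These 5 varied at least 1.5-fold within both groups in that order of libraries, as did 5.12% of all genes tested, against 11.9% of the 42. Their median transcript GC content was 57.1%, and that of all genes with this pattern 58.3%, against 49.4% for all genes tested.

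**Figure D2:**
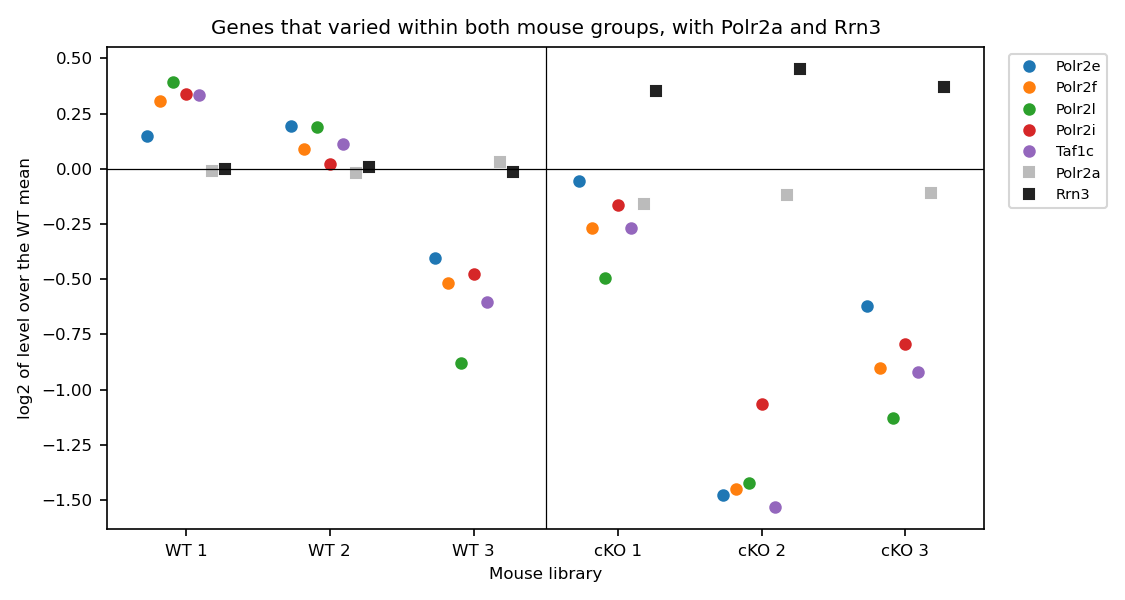
Level of Polr2e, Polr2f, Polr2l, Polr2i and Taf1c in each of the 6 mouse libraries, as the log2 of the level over the WT mean, with Polr2a and Rrn3 as squares for comparison. The 5 genes drop in WT replicate 3 and in cKO replicate 2, while Rrn3 and Polr2a stay within a narrow band inside each group.

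The mouse calls of the polymerase genes were also counted by GC content. Of the 11 among the 3725 genes with the highest GC content (54.1% to 74.2%), 0 were called higher and 6 lower, while all 3725 had 570 higher, 604 lower and a median log2 fold change of -0.15. Of the 6 among the 3724 genes with a GC content of 45.0% to 49.4%, 3 were called higher and 0 lower, while all 3724 had 931 higher, 584 lower and a median of 0.052. Of the 7 polymerase genes at 22.1% to 45.0%, 0 were higher and 2 lower (741 and 516 of 3725 genes), and of the 18 at 49.4% to 54.1%, 2 were higher and 7 lower (837 and 655 of 3724 genes). With an offset for GC content in each library, 5 polymerase genes were called higher and 20 lower, but Maf1 (log2 -0.048), Polr1c, Polr1g, Polr2c and Polr2j were no longer called. The calls among all genes tested went from 3083 higher and 2360 lower (36.5%) to 3474 higher and 3655 lower (47.8%) with that offset.

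The 8 polymerase II genes had a median log2 fold change of -0.091 in human, where the genes of polymerase I alone had -0.4 and those of polymerase III alone -0.2. Of the 8, 2 rose and 4 fell in human, and 1 rose and 3 fell in mouse. POLR2A, the largest subunit, whose tail carries the phosphorylated heptad repeats, was at 233, 244 and 239 CPM in shNC and 240, 239 and 240 in shDDX21 (log2 0.0065, interval -0.046 to 0.059). The groups overlapped, and the gene was called higher with upper-quartile factors and with a gene-length offset (log2 0.076 and 0.074). In mouse, Polr2a was at 509, 506 and 524 CPM in WT and 459, 473 and 476 in cKO (log2 -0.13, SE 0.0337, adjusted p = 0.0222 by edgeR). These groups did not overlap, but the call was lost without any single library (adjusted p from 0.0542 to 0.102 by edgeR).

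POLR2D, which with POLR2G forms the stalk of polymerase II, had the largest change of its enzyme in human, from 76.6, 73.2 and 71.9 CPM to 45.4, 43.2 and 41.9 (log2 -0.76, SE 0.0458, adjusted p = 2.14e-24 by edgeR). Every shDDX21 library was below every shNC library. Its partner POLR2G was called slightly higher (log2 0.1, adjusted p = 0.0472 by edgeR), and neither stalk gene passed in mouse (Polr2d log2 -0.11, Polr2g log2 0.12). POLR2C fell in both (log2 -0.15 in mouse and -0.33 in human), and POLR2B, the second catalytic subunit, fell in human (log2 -0.11) and was at -0.07 in mouse without passing. POLR2J fell in mouse (log2 -0.24) and rose in human (log2 0.28), and its near-identical human copies POLR2J2 and POLR2J3 had 52.5% and 78.1% as many reads, so its human level is uncertain. POLR2M, a protein associated with polymerase II, rose in mouse (log2 0.14) and fell in human (log2 -0.16). POLR2I passed in neither, and in human its 1.77 to 3.14 CPM rest on exons of which 19.1% overlap TBCB on the other strand, a gene with 4284 counts over the 6 human libraries against 270 for POLR2I. In mouse, Tbcb overlaps 26.8% of the exon bases of Polr2i on the other strand (4208 counts against 1412). Lrwd1 likewise overlaps 15.9% of those of Polr2j (12028 counts against 7334).

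Of the 10 polymerase III subunits, 7 fell and 1 rose in human, and 2 fell and 1 rose in mouse. POLR3A, the largest subunit, was at 74.7, 83.0 and 78.5 CPM in shNC and 69.2, 64.8 and 66.9 in shDDX21 (log2 -0.23, SE 0.0417, adjusted p = 2.52e-06 by edgeR), with no overlap. Mouse Polr3a was at 84.0, 85.7 and 85.5 CPM in WT and 81.7, 86.0 and 90.1 in cKO (log2 0.015, interval -0.081 to 0.11), with overlap. POLR3B, its catalytic partner, had the widest split between the experiments among the subunits of polymerase III alone.

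Mouse Polr3b (ENSMUSG00000034453, chr10:84622292-84727178) rose from 87.8, 83.7 and 81.1 CPM to 111, 109 and 105 (log2 0.36, SE 0.0469, adjusted p = 0.00101 by edgeR). Human POLR3B (ENSG00000013503) fell from 25.5, 26.6 and 27.9 CPM to 17.1, 16.0 and 17.7 (log2 -0.65, SE 0.0732, adjusted p = 3.8e-12 by edgeR). Neither pair of groups overlapped, and the calls were made under every alternative run in each experiment other than the 2-fold threshold.

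POLR3G and POLR3GL are alternative subunits of polymerase III, of which POLR3G is known from pluripotent and proliferating cells. Human POLR3G (ENSG00000113356, chr5:90471748-90514557 on hg38) had the largest fall of all 42 genes, from 12.8, 11.8 and 10.3 CPM to 5.29, 5.34 and 5.13 (log2 -1.15, SE 0.118, adjusted p = 1.54e-13 by edgeR). It was the 1 gene in either experiment past 2-fold. POLR3GL fell with it, from 11.6, 11.7 and 11.8 CPM to 6.47, 6.05 and 7.4 (log2 -0.82, SE 0.11, adjusted p = 1.44e-09 by edgeR). In both, every shDDX21 library lay below every shNC library. MBLAC2, on the other strand, overlaps 6.5% of the exon bases of POLR3G and had 2027 counts over the 6 human libraries against 888. Of the exon bases of POLR3GL, 21.1% overlap a gene on the same strand that had 0 counts.

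Mouse Polr3g (ENSMUSG00000035834) fell from 56.8, 56.1 and 56.3 CPM to 43.6, 49.5 and 44.8 (log2 -0.3, SE 0.0607, adjusted p = 0.00829 by edgeR), with no overlap. Polr3gl was at 17.5, 15.5 and 14.9 CPM in WT and 16.4, 15.2 and 15.2 in cKO (log2 -0.033, interval -0.21 to 0.14), with overlap. Per kb of exon, Polr3g made up 56.9%, 59.5% and 60.5% of the pair's summed level in WT and 52.0%, 56.9% and 54.4% in cKO. In human the share was 33.0%, 31.2% and 28.3% in shNC and 26.9%, 28.4% and 23.8% in shDDX21. The difference in share was -4.55 percentage points in mouse and -4.46 in human, each with p = 0.2 in a two-sided exact permutation test that cannot go below 0.1 with 3 against 3 libraries.

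Other polymerase III subunits moved less. POLR3E was called lower in mouse (log2 -0.34, SE 0.107, groups overlapping) and higher in human (log2 0.27, SE 0.0506, groups apart). POLR3K and POLR3C fell in human (log2 -0.29 and -0.11) and did not pass in mouse (log2 0.0063 and 0.0083). POLR3D and POLR3F passed in neither experiment (log2 -0.22 and -0.1 in mouse, -0.03 and 0.087 in human).

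All 4 factors of polymerase III, Brf1, Brf2, Bdp1 and Maf1, were called lower in mouse, as were 15.8% of all genes tested. Of these mouse calls, only that of Brf1 held under every alternative other than the 2-fold threshold. In human, 2 of the 4 fell and 2 rose, against 27.4% lower and 25.3% higher over all genes tested. BRF1 is the TFIIIB subunit used at transfer RNA genes. Mouse Brf1 (ENSMUSG00000011158, chr12:112960085-113000704) was at 84.3, 81.9 and 76.9 CPM in WT and 66.2, 60.1 and 62.6 in cKO (log2 -0.36, SE 0.0569, adjusted p = 0.00241 by edgeR). Human BRF1 was at 34.4, 35.3 and 38.2 CPM in shNC and 34.4, 33.4 and 30.4 in shDDX21 (log2 -0.14, SE 0.0594, adjusted p = 0.0486 by edgeR). The mouse groups were apart; in human, shNC replicate 1 and shDDX21 replicate 1 were about level, and the human call was lost without shNC replicate 2 or 3 or shDDX21 replicate 2 or 3 (adjusted p from 0.0527 to 0.303 by edgeR).

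BRF2, used at polymerase III promoters that lie outside the transcribed region, moved in opposite directions. Mouse Brf2 was at 19.4, 19.5 and 14.8 CPM in WT and 14.4, 12.4 and 13.2 in cKO (log2 -0.43, SE 0.126, adjusted p = 0.034 by edgeR), and the call was lost without WT replicate 1 or 2 or cKO replicate 2 or 3 (adjusted p from 0.0847 to 0.116 by edgeR). WT replicate 3 lay just above the cKO range. Human BRF2 rose from 7.25, 7.57 and 8.27 CPM to 12.5, 12.2 and 12 (log2 0.67, SE 0.105, adjusted p = 7.66e-08 by edgeR), the largest rise among the 42 genes in human. The human groups were far apart, but 59.6% of the exon bases of BRF2 overlap ADGRA2 on the other strand.

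MAF1, the repressor of polymerase III, also rose in human, from 70.4, 68.2 and 67.2 CPM to 94.0, 95.9 and 97.2 (log2 0.48, SE 0.0383, adjusted p = 3.38e-18 by edgeR). In mouse Maf1 was at 54.1, 55.5 and 54.5 CPM in WT and 50.0, 45.8 and 49.1 in cKO (log2 -0.18, SE 0.0534, adjusted p = 0.0347 by edgeR). The mouse groups did not overlap, but the call was lost without any single library other than cKO replicate 1 (adjusted p from 0.063 to 0.123 by edgeR). BDP1, which completes TFIIIB, fell in both (log2 -0.15 in mouse and -0.47 in human), and its mouse call was lost under 8 of 16 alternatives.

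**Figure D3:**
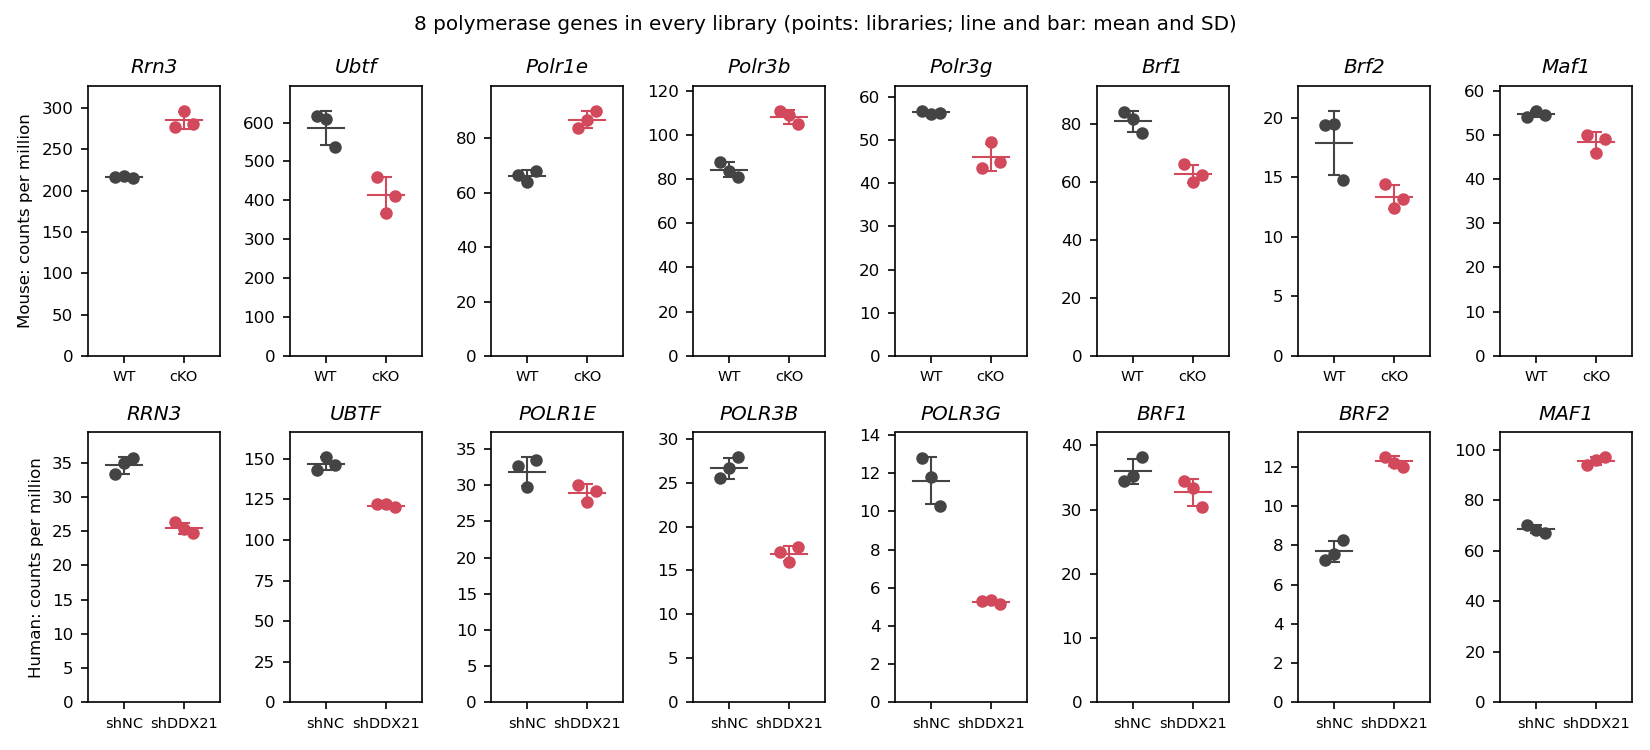
CPM of 8 genes in every library (points), with the mean (line) and SD (bar) of 3, for mouse in the upper row and human in the lower row. Rrn3, Polr1e and Polr3b lie higher in cKO and lower in shDDX21, and Brf2 and Maf1 lie lower in cKO and higher in shDDX21.

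The experiments share no library, so their effects could be set against each other in 1 model over the 10313 genes matched by symbol. The mouse and human effects differed for 27 of the 42 genes (64.3%), against 56.2% of all matched genes. The mouse effect lay above the human one for 18 (35.9% of all matched genes) and below it for 9 (20.4%). With total-count scaling the split was 21 and 5 and the all-gene median of the difference 0.18 rather than 0.087. With a gene-length offset it was 14 and 11, at a median of 0.031.

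All 5 genes called higher in mouse, Rrn3, Polr1e, Polr3b, Ttf1 and Polr2m, were called lower in human. Over all matched genes called in both experiments, 926 were likewise higher in mouse and lower in human, and 663 were higher in both. The calls of POLR1E in human, and of TTF1 and POLR2M in both experiments, were lost under some alternatives. Of the 15 called lower in mouse, 10 were also lower in human (POLR1B, POLR1C, POLR1D, POLR1G, POLR2C, POLR2H, POLR3G, UBTF, BRF1 and BDP1), 4 were higher (POLR2J, POLR3E, BRF2 and MAF1) and POLR2A was not called. None was higher in both. Of the 10 lower in both, only UBTF and POLR3G were called under every alternative in both experiments, the 2-fold threshold set apart. The mouse calls of POLR1B, POLR1C, POLR1D, POLR1G, POLR2C, POLR2H and BDP1 and the human call of BRF1 were lost under some. The mouse calls of POLR2J, POLR3E, BRF2 and MAF1 were also lost under some. Among the 19 polymerase genes called in both experiments, 52.6% went in the same direction, against 56.7% of the 3061 matched genes called in both.

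The smallest p for the difference belonged to RRN3 (mouse minus human log2 difference 0.84, SE 0.0564, adjusted p = 2.15e-07 by edgeR). POLR3B followed, with a difference of 1.01 (SE 0.0748), and MAF1 with -0.66 (SE 0.0579). POLR1A, POLR1B and POLR2D came next (differences of 0.37, 0.46 and 0.66), each with a larger fall in human than any change in mouse. For UBTF the difference of -0.23 did not pass (adjusted p = 0.0735 by edgeR), and with both libraries that stand apart left out it did. BRF2 had the second largest difference in size among those that passed, at -1.1 (SE 0.159), after POLR2L at -1.21 (SE 0.423), whose mouse values vary within groups.

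**Figure D4:**
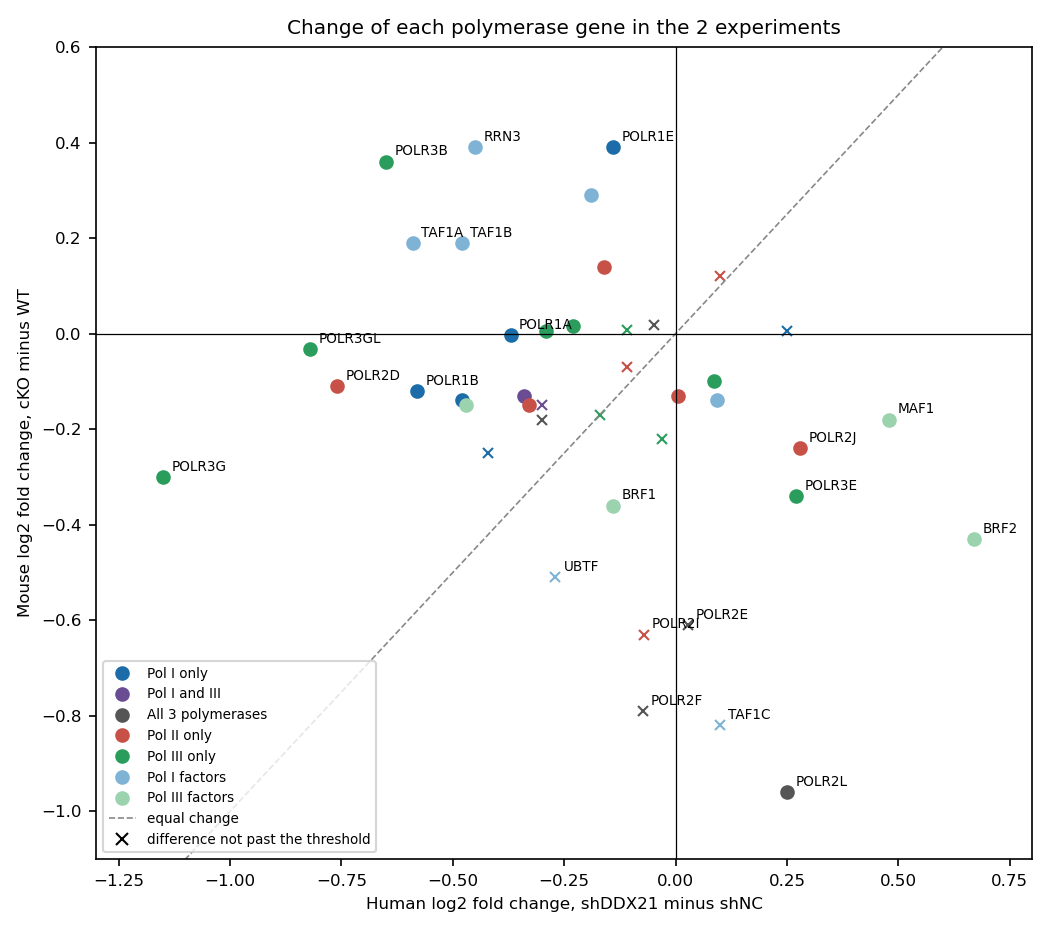
Mouse log2 fold change (vertical) against human log2 fold change (horizontal) for the 42 genes, coloured by polymerase. Dots are genes whose mouse and human effects differed at an adjusted p of 0.05, crosses are the others, and the dashed line marks equal change. RRN3, POLR3B, POLR1E and TTF1 sit at the upper left, and MAF1, POLR2J, POLR3E and BRF2 at the lower right.

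Summed per kb of exon, the subunits of polymerase I alone went from 44.0 to 46.3 CPM per kb in the shNC libraries to 35.0 to 36.0 in the shDDX21 libraries. Those of polymerase III alone went from 61.2 to 62.2 down to 51.4 to 53.0. The polymerase II sum, which also holds the associated POLR2M, went from 154 to 159 down to 150 to 152. The human groups did not overlap in any of the 3 sums. The sum of the human polymerase III factors lay higher in shDDX21, at 48.2 to 48.7 CPM per kb against 36.8 to 37.3 in shNC. Most of that sum was the repressor MAF1, at a mean of 27.9 CPM per kb in shNC and 39.0 in shDDX21. Of the TFIIIB genes, BRF2 went from 2.82 to 4.48, whereas BRF1 went from 2.78 to 2.52 and BDP1 from 3.46 to 2.5. The ratio of the polymerase III sum to the polymerase II sum was 0.391 to 0.397 in shNC and 0.343 to 0.349 in shDDX21, and that of polymerase I to polymerase II 0.277 to 0.301 and 0.234 to 0.238.

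In mouse the same ratios overlapped, at 0.357 to 0.395 in WT and 0.359 to 0.387 in cKO for polymerase III over II, and 0.324 to 0.35 and 0.326 to 0.345 for polymerase I over II. The mouse polymerase II sum holds Polr2m, at a mean of 125 CPM per kb in WT and 138 in cKO, and ratios without it were not computed. The sum of the polymerase III factors did not overlap between the mouse groups, at 56.4 to 58.7 CPM per kb in WT and 48.5 to 50.3 in cKO. The sum of the subunits of polymerase I alone did not overlap either (154 to 158 against 151 to 153), nor did that of the subunits shared by polymerases I and III (81.4 to 87.1 against 74.7 to 77.7). The subunits shared by all enzymes overlapped, at 108 to 147 in WT and 76.4 to 120 in cKO.

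**Figure D5:**
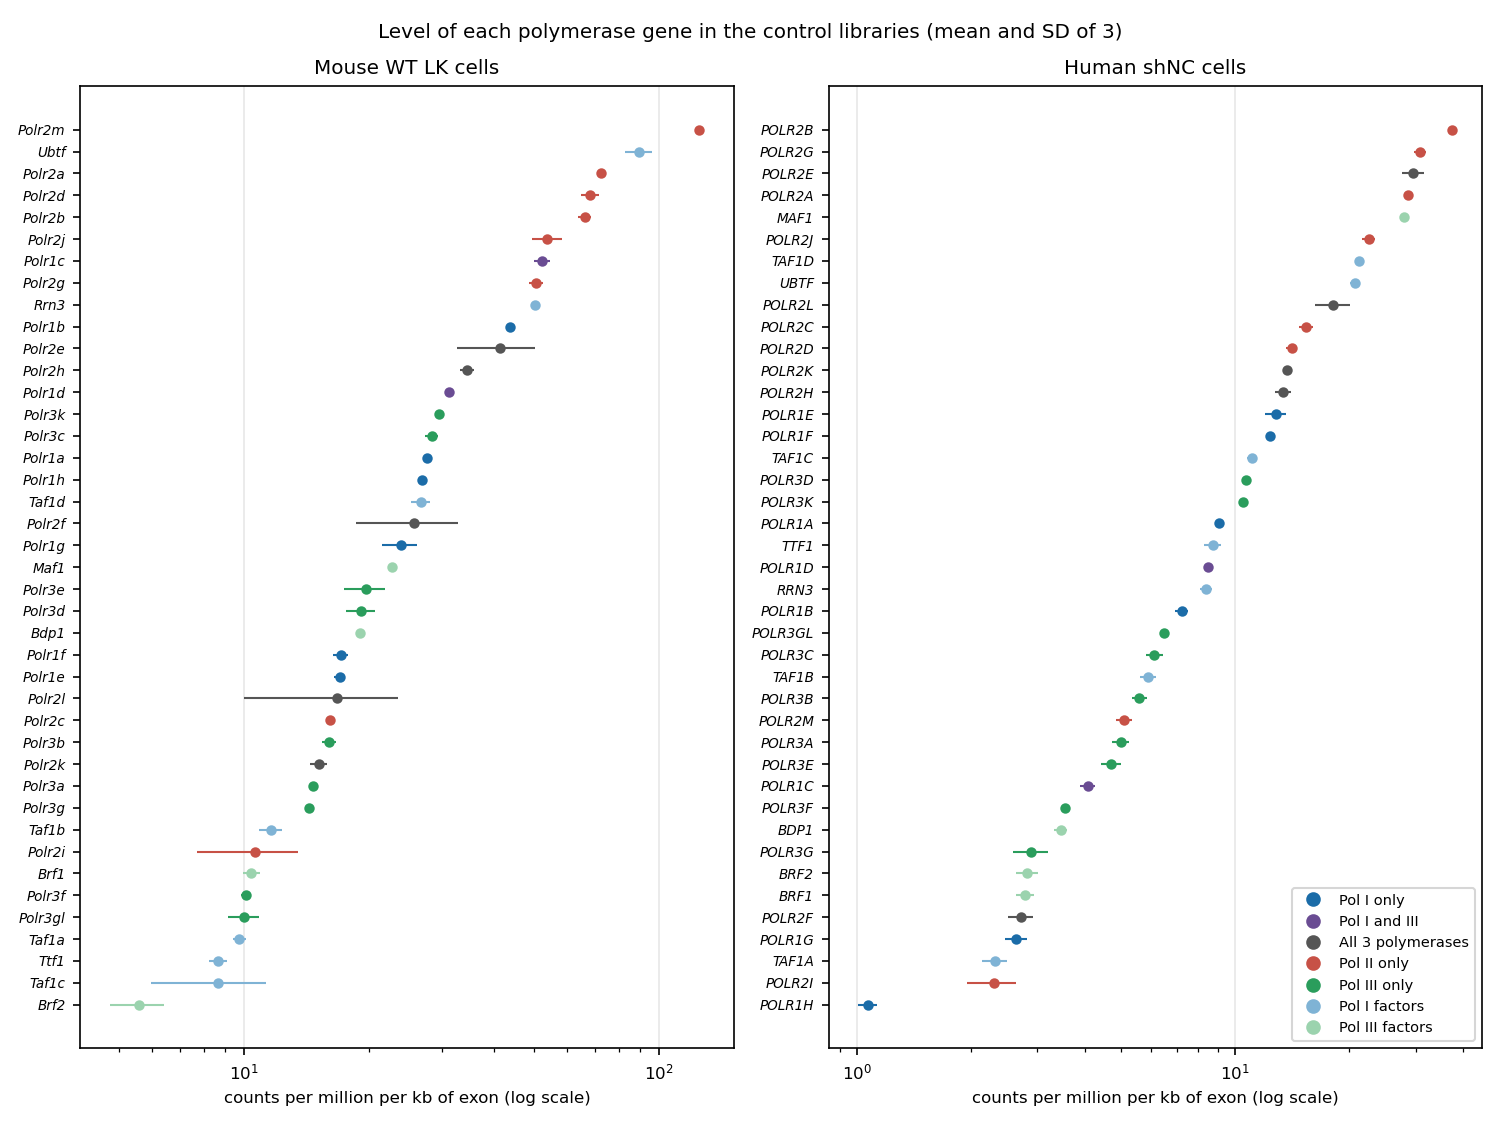
Level of each gene named on the axis in the control libraries, in CPM per kb of exon on a log scale (mean and SD of 3), mouse WT on the left and human shNC on the right, coloured by polymerase. Polr2m, Ubtf and Polr2a lead in mouse and POLR2B, POLR2G and POLR2E in human, and Brf2 and POLR1H are lowest.

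Per kb of exon, Polr2m stood at 125 ± 3.25 CPM per kb (SD, n = 3) in WT, Ubtf at 89.6 ± 6.68 and Polr2a at 72.6 ± 1.39, while Brf2 was lowest at 5.58 ± 0.839. Polr2a was not separated from Polr2d (68.1 ± 3.41) by their SDs. In shNC cells POLR2B led at 37.4 ± 0.12 CPM per kb, followed by POLR2G at 30.8 ± 1.09 and POLR2E at 29.6 ± 1.97, whose ranges of 1 SD met, and POLR1H was lowest at 1.07 ± 0.0612. The exon lengths are those in the deposited tables, which differ between the species' annotations, so no level is set between species.

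Genes that work with the polymerases gave a background for these changes. Of all genes tested in mouse, 36.5% were called, 20.7% higher and 15.8% lower. In mouse, 3 of 32 tested entries of the general polymerase II factors were higher and 7 lower (median log2 -0.087), with Gtf2f1 (-0.38) and Taf5 (-0.35) the largest called changes, and Taf9 counted under 2 identifiers. Of 15 genes on the list of polymerase III template factors, 3 were higher, among them Gtf3c1, the largest TFIIIC subunit (0.87), and 3 lower, among them Gtf3c2 (-0.34). That list also holds Crcp and Ssb, which are not template factors and were not called in mouse. Of 16 assembly factors, 2 were higher, including Pdrg1 (0.85), and 4 lower, including Telo2 (-0.64). Of 18 ribosomal DNA chromatin genes and polymerase I regulators, 1 was higher and 7 lower (median -0.15), with Kdm2b (-0.52) and Top2a (-0.49) the largest called changes, and none of 5 mitochondrial transcription genes was called.

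In human the median of each of these lists lay below its mouse value, with -0.17, -0.27 and -0.26 for the template factors, assembly factors and mitochondrial genes against -0.069, -0.14 and -0.041 in mouse. Of all genes tested in human, 52.7% were called, 25.3% higher and 27.4% lower. Of 29 general polymerase II factors, 5 were higher and 15 lower (median log2 -0.15), led by TAF5 (-1.04) and GTF2E1 (-0.89). Of 15 genes on the template factor list, 4 were higher and 7 lower, the latter including CRCP (-0.25) and SSB (-0.4). GTF3A, the 5S gene factor TFIIIA, fell from 94.8 ± 4.09 CPM (SD, n = 3) to 23.9 ± 0.422 (log2 -1.98), more than any polymerase gene. Of 18 genes on the assembly list, 3 were higher and 11 lower, led by URI1 (-1.41) and RUVBL1 (-0.57). That list holds POLR2J2 and POLR2J3, the copies of POLR2J, which were 2 of the 3 higher (0.39 and 0.29). Of 19 ribosomal DNA chromatin genes and polymerase I regulators, 1 was higher and 14 lower (median -0.43), led by TOP2A (-1.34) and SMARCA5 (-1.23), and 4 of 6 mitochondrial transcription genes were lower, led by TFAM (-1.05).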

How the data were processed

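Polyadenylated RNA of 6 mouse and 6 human libraries was analysed, grouped by the sample labels. STAR, featureCounts and DESeq2 and the builds mm10 and hg38 are named in the submitters' processing notes, with no versions or roles, and the strand setting and the treatment of multiply mapped reads are not given in the sources used here. Raw counts per gene, as whole numbers, and each gene's exon length came from the deposited raw tables. The deposited normalized tables hold 11908 mouse and 18674 human genes as a signal made by the authors: in each library every value was the raw count divided by 1 constant, within a relative deviation of 4.97e-10. Their log2 columns, the authors' deposited fold changes, were not used, nor were their p-values; the normalized tables gave symbols only (14931 in human).

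Counts as deposited were tested with edgeR 4.0.16 (filterByExpr, TMM factors, quasi-likelihood F test, two-sided, no covariate, Benjamini-Hochberg over all genes tested, threshold 0.05) within each experiment, and an interaction model over genes matched by symbol compared the experiments. CPM values used TMM factors. Alternatives were DESeq2 1.42.0, other scalings, filters, gene-length and GC offsets, a replicate block, a 2-fold threshold and each library left out. Depth was 15289510 to 23898130 counts, and the fits were tested on simulated data. Sequences came from RefSeq.

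The genes, lists and tests were chosen with earlier results of these data known. Values in every library are given for the 6 genes with the largest called change in each experiment, the 6 with the smallest interaction p, and 10 named at the start (POLR1A, POLR2A, POLR3A, RRN3, UBTF, MAF1 and the pairs POLR3G with POLR3GL and BRF1 with BRF2). Those of Polr2e, Polr2f, Polr2l, Polr2i, Taf1c and POLR2L were added after their values were seen. 1 gene of the rule enters the counts and is not reported here by name.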

Additional observations from a re-analysis of the deposited data

Results flagged for a closer look

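For 27 of the 42 genes the effect of losing DDX21 differed between mouse LK cells and human H1-derived cells by edgeR's interaction test, against 56.2% of all matched genes, and the values below are mouse minus human log2 fold changes. The mouse effect was above the human effect for 18. In the polymerase I system these were RRN3 (0.84), TAF1A (0.78), TAF1B (0.68), POLR1E (0.53), TTF1 (0.48), POLR1B (0.46), POLR1A (0.37) and POLR1F (0.34). In the polymerase III system they were POLR3B (1.01), POLR3G (0.85), POLR3GL (0.79), BDP1 (0.32), POLR3K (0.3) and POLR3A (0.25), and POLR1D (0.21) is shared by both enzymes. In polymerase II they were POLR2D (0.66), POLR2M (0.31) and POLR2C (0.18).

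The mouse effect was below the human effect for 9 genes. Of the polymerase III system these were BRF2 (-1.1), MAF1 (-0.66), POLR3E (-0.61), BRF1 (-0.23) and POLR3F (-0.19). The others were POLR2L (-1.21), POLR2J (-0.53), TAF1D (-0.23) and POLR2A (-0.13). The experiments differ in species, cell source and way of removing DDX21, and these cannot be told apart.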

How the results depend on the processing

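In mouse, the count of 20 called polymerase genes moved to 12 with DESeq2, 11 with total counts, 11 with upper-quartile factors and 0 at a 2-fold threshold, and ranged from 6 to 18 with each library left out. The share of all genes called was 36.5% in the main fit and 30.1%, 34.7%, 34.5% and 9.08% under these settings. It ranged from 24.2% to 37.2% with each library left out. The human count of 34 ranged from 26 to 31 with each library left out and was 1 at 2-fold, and the 27 differences between experiments ranged from 23 to 30 and were 3 at 2-fold. The matching shares of all genes were 46.9% to 48.1% and 7.18% in human, and 51.3% to 60.4% and 12.9% for the differences. No called gene changed sign under any alternative, but 14 of the 20 mouse calls, 12 of the 34 human calls and 9 of the 27 differences were lost at least once, leaving the 2-fold threshold apart. Of the genes given in full, 4 that were not called changed sign. Mouse Polr1a was at 0.012 with the 10-count filter, 0.062 with total counts, 0.022 with upper-quartile factors, 0.025 without both libraries that stand apart, and 0.003, 0.0038 and 0.018 without WT replicate 3, cKO replicate 1 and cKO replicate 2. Polr3a was at -0.00022 with DESeq2, -0.016 with the GC offset, -0.00018 with RLE factors, -0.0033 with the length offset, -0.0017 without a filter and -0.021 without cKO replicate 3. Polr3gl was at 0.033 with total counts and ranged from -0.086 without WT replicate 3 to 0.036 without WT replicate 1, and human POLR2A at -0.023 with total counts and -0.014 without shNC replicate 1. The causes were not tested. The GC offset and the removal of both libraries together were chosen after seeing the data. With 1 library left out of 3, a fit has fewer degrees of freedom. Depth limits the genes with few reads, such as human POLR2I, POLR1H and TAF1A.

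No consistent pairing by replicate number was seen: deviations of same-numbered libraries correlated at 0.3163, -0.1768 and 0.0131 in mouse. In human they correlated at -0.0138, -0.0024 and -9e-04. The labels do not say whether same-numbered libraries were paired. With a replicate block 16 mouse genes (4 higher, 12 lower), 31 human genes and 25 differences were called.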
